A study of Rattus norvegicus with 13 samples.

Results

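The nuclear genes for importing proteins into mitochondria, and for folding, cleaving and degrading them there, were followed across regenerating axons, neurons and uninjured axons of rat cortical cultures. Members were the probe sets with 1 gene symbol that begins with Timm or Tomm and a digit, or that is among 19 further genes named one by one. These were 57 probe sets of 39 genes, out of 20826 probe sets of 14217 genes with 1 symbol each. *Phb*, *Chchd2* and *Chchd4* have no probe set with that symbol alone and were not analysed here, and 15 of the 39 genes had more than 1 probe set. All 39 genes are described, with no filter on low values.

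Rat cortical cultures had been kept 13 days in vitro in Neurobasal E with B27, in microfluidic devices where axons grow into a chamber of their own. The groups were 3 arrays of regenerating axons, cut on day 11 and regrown for 2 days, 3 arrays of uninjured neurons from the neuronal compartment, and 7 arrays of uninjured axons from 3 culture batches. Material from 3 platforms was pooled for each array, and its polyadenylated RNA was amplified in 2 rounds. No strain, age or genotype is given in the labels. The deposited values are ratios, and a ratio of 1 was read as the uninjured axon level, although the labels name no denominator for the regenerating and neuron arrays. Every direction against uninjured axons rests on that reading. Uninjured array 7 reads 1 throughout and holds no measurement, so the spread of uninjured axons comes from 6 arrays. Uninjured arrays 1 to 3 have a median ratio of 1 in every probe set, and so do arrays 4 to 6. Differences between these sets are therefore missing from the uninjured ranges, the counts of members without overlap and the p-values against uninjured axons. A ratio shows no level, so presence or absence of a transcript, or of a marker gene, could not be read. Whether replicate arrays stem from different cultures is given only for uninjured axons, by batch, so p-values measure the spread between these arrays, which may be technical.

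Nearly all mitochondrial proteins are encoded in the nucleus, made in the cytosol and threaded through the TOM complex of the outer membrane. From there the SAM complex inserts barrel proteins, small chaperones of the intermembrane space carry hydrophobic precursors, and the TIM22 and TIM23 complexes pass proteins into the inner membrane and the matrix. Proteases and prohibitins then keep protein quality. In axons, far from the nucleus, local translation of nuclear-encoded mitochondrial messages is a known way of supplying mitochondria.

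The promoters of 33 of the 39 genes were found in the RefSeq promoter table of the GRCr8 build, and the 250 bases before each start were searched on both strands. The motif CCGGAAGT, bound by ETS factors such as GABP (also called NRF-2, known to act on genes of mitochondrial biogenesis), occurred in 10 of the 33 (30.3%), against 3.10% of all 33469 promoters and 3.95% of those of protein-coding genes. The core of the NRF-1 site, GCGCA and GCGC with any base between them, occurred in 4 of the 33 (12.1%), against 3.75% of all promoters and 5.06% of those of protein-coding genes. A match of letters is a description and not a binding site. By the test described below, 7 of the 10 members with CCGGAAGT were higher in neurons than in uninjured axons and 1 was lower. Of the 23 without it 13 were higher and 0 lower, and of all genes 36.9% and 23.0%. A link between motif and ratio was not tested. The last 120 bases before the start are shown, with the motifs in capitals, for *Tomm20* (chr19:71832421-71832540, minus strand) and *Mtx2* (chr3:80137477-80137596, plus strand), which are among the members furthest above axons in neurons, and for *Tomm7* (chr4:12197383-12197502, plus strand) and *Timm13* (chr7:9459626-9459745, plus strand), which are among the lowest in regenerating axons.
Tomm20: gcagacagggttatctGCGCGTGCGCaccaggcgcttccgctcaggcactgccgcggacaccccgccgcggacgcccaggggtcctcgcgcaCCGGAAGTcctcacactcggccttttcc
Mtx2: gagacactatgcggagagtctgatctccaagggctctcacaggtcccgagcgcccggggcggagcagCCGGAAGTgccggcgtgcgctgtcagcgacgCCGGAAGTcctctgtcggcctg
Tomm7: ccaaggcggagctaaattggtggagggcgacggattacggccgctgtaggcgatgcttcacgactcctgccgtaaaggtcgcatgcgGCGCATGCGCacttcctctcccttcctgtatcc
Timm13: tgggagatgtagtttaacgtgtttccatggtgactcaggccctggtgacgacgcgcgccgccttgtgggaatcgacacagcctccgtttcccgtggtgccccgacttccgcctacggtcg

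**Figure D1:**
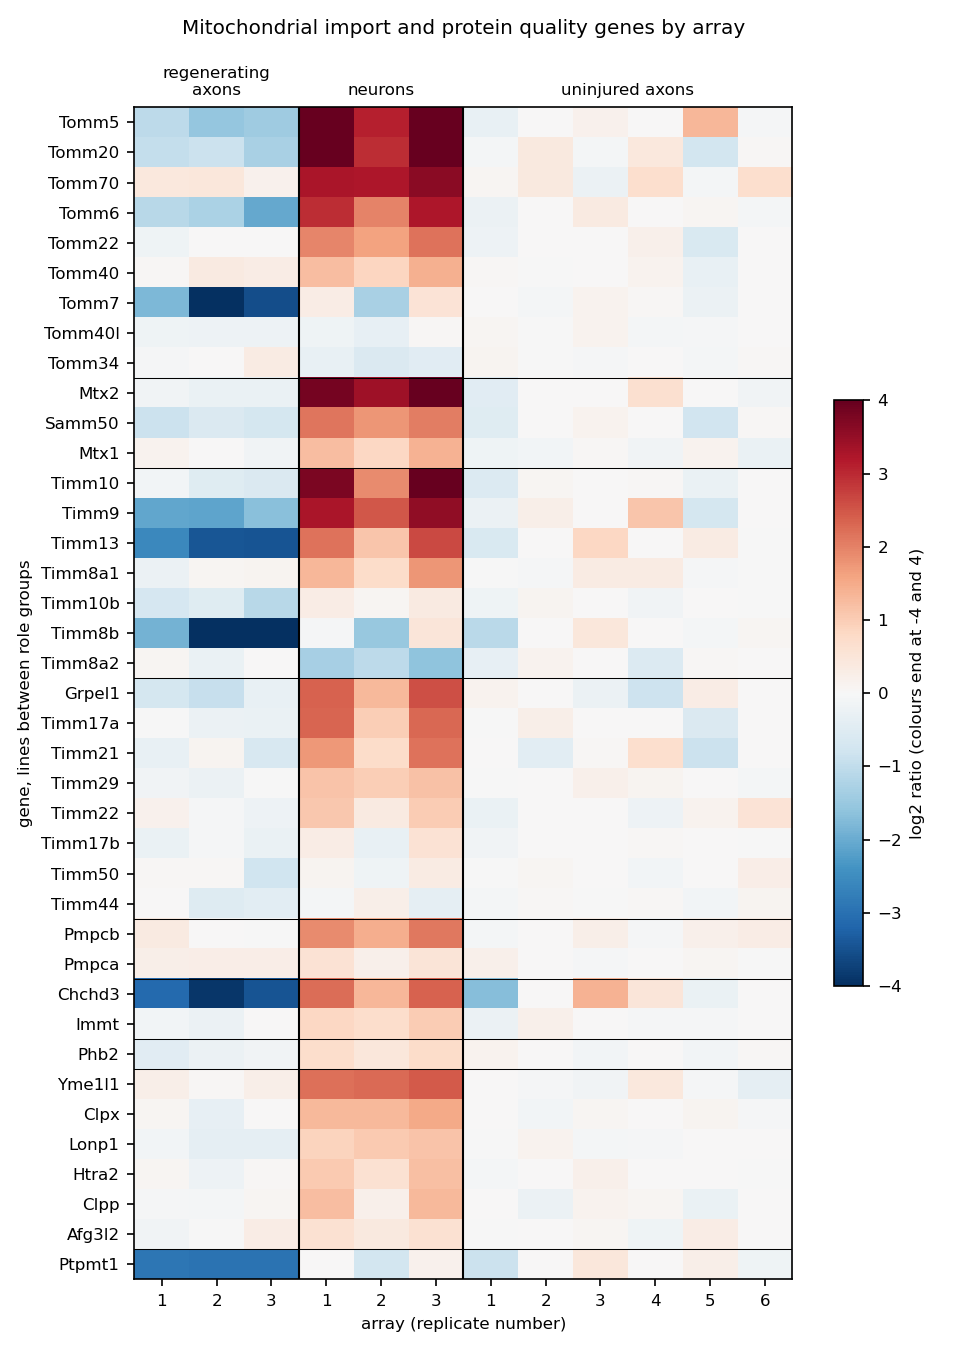
Log2 ratio of each member gene (rows, grouped by role) in each array (columns; regenerating axons 1 to 3, neurons 1 to 3, uninjured axons 1 to 6), red for ratios above 1 and blue for ratios below 1. Most rows are red in neurons, while *Timm8b*, *Tomm7*, *Chchd3*, *Timm13* and *Ptpmt1* are dark blue in regenerating axons.

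Setting neurons against uninjured axons asks where these messages are relatively more abundant. Of the 39 genes 25 (64.1%) were higher in neurons, against 36.9% of all genes, and 1 (2.56%) was lower, against 23.0% of all genes. The remaining 13 did not pass. In 27 members all 3 neuron arrays lay above all 6 uninjured arrays, against 41.8% of all genes, and in 2 below them, against 30.3%. Probe set by probe set, 30 of 57 were higher and 3 lower, against 34.2% and 21.7% of all probe sets. The median log2 ratio of the members was 1.15, and that of all genes 0.22. With each array shifted to the same median, 22 were higher and 2 lower. The test was limma on log2 ratios, with p-values adjusted over all 14217 genes and a threshold of 0.05. Each ± is the standard error (SE) of the limma fit. Against uninjured axons it pools the spread of the group's 3 arrays with that of the uninjured arrays. It also holds the error of 1 reference array. A ratio between neurons and axons cannot tell fewer cells of a type from less RNA per cell. Of 12 neuronal markers 11 were higher in neurons than in uninjured axons, with a median of log2 2.93. Of 6 markers of dendrites and cell bodies 3 were higher and 0 lower, with a median of log2 0.55. Markers of other cells were followed in the same comparison. Of 8 oligodendrocyte lineage markers 3 were higher in neurons and 1 lower, against 36.9% and 23.0% of all genes. Their share higher was thus near that of all genes. Of 12 astrocyte markers 11 were higher in neurons, with array medians of log2 3.02 to 3.19 in neurons and -0.03 to 0.11 in uninjured axons. Of 9 microglia markers 8 were lower, with array medians of -1.09 to -0.83 in neurons and -0.04 to 0.02 in uninjured axons. The 40 receptor genes of smell, taste and pheromones, taken as largely silent, had array medians of -1.07 to -0.77 in neurons. The microglia markers lay near those values. The ratio of the 3′ to the 5′ control probe set of GAPDH was 0.214, 0.30 and 0.235 in neurons, against 0.900 to 1.39 in uninjured axons. That of actin went the other way, at 1.72, 1.34 and 1.52 in neurons against 0.965 to 1.17 in uninjured axons. Both are quotients of deposited ratios and not of signals. In neuron arrays 1 to 3 the actin probe sets themselves read 71.2, 38.4 and 80.1 (3′) and 41.4, 28.6 and 52.7 (5′). Those of GAPDH read 13.7, 7.19 and 16.6 (3′) and 64.1, 24.0 and 70.8 (5′). The part of these cell types and of RNA quality in the excess was not tested.

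The TOM complex ran from the largest excess among the members to no excess, and 6 of its 9 genes passed as higher in neurons. *Tomm5*, a small subunit that stabilises the complex, had ratios of 20.4, 8.64 and 22.8 in neuron arrays 1, 2 and 3, against 0.812 to 2.51 (median 1) in uninjured axons. The neuron arrays all lay above the uninjured ones, and the difference was 15.9-fold (log2 3.99 ± 0.61, limma adjusted p = 0.000555). *Tomm20*, the receptor for cleavable presequences, was 14.6-fold higher (log2 3.87 ± 0.56), and *Tomm70*, the receptor for carrier precursors, was 10.4-fold higher (3.37 ± 0.34). The small subunit gene *Tomm6* (log2 2.73 ± 0.40), the central receptor gene *Tomm22* (1.91 ± 0.31) and the channel gene *Tomm40* (1.17 ± 0.24) also passed. *Tomm7*, also a small subunit, read 1.23, 0.409 and 1.47 in neurons, against 0.859 to 1.11 in uninjured axons, so that its neuron arrays lay on both sides (log2 -0.15 ± 0.56, adjusted p = 0.829). *Tomm40l*, a paralogue of *Tomm40*, was at log2 -0.15 ± 0.19, with probe sets at -0.56 and 0.26. *Tomm34*, a cytosolic partner of heat shock proteins rather than a membrane subunit, read 0.816, 0.675 and 0.732 in neurons, against 0.955 to 1.08 (median 0.995) in uninjured axons. Its arrays did not overlap, but it missed the threshold (log2 -0.44 ± 0.17, adjusted p = 0.0509), and its 2 probe sets disagreed, at -1.47 and 0.60.

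All 3 genes of the SAM complex were higher in neurons. *Mtx2*, encoding a metaxin that faces the cytosol, read 14.2, 10.6 and 16.8 in neurons and 0.737 to 1.57 (median 1) in uninjured axons. The neuron arrays lay far above the uninjured ones, and the adjusted p was the smallest of the 39 members in this comparison (13.6-fold, log2 3.77 ± 0.35, adjusted p = 3.08e-05). *Samm50*, which encodes the barrel protein at its core, was 3.97-fold higher (log2 1.99 ± 0.34). *Mtx1*, the other metaxin, read 2.33, 1.76 and 2.64 in neurons and 0.833 to 1.10 (median 0.918) in uninjured axons (log2 1.15 ± 0.25, adjusted p = 0.00362).

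The small chaperones of the intermembrane space were split. *Timm9* and *Timm10*, whose products form a hexamer that carries inner membrane proteins, were both higher in neurons. *Timm10* read 13.7, 3.74 and 16.1 in neurons and 0.682 to 1.05 (median 1) in uninjured axons, with neuron array 2 well below the others (log2 3.23 ± 0.66, adjusted p = 0.00263). *Timm9* was at log2 3.10 ± 0.59. *Timm13* (1.97 ± 0.59) and *Timm8a1* (1.28 ± 0.35), which belong to the other hexamer, passed as well. *Timm8b* (-0.36 ± 0.70) and *Timm10b* (0.25 ± 0.19), the chaperone docked at TIM22, did not. *Timm8a2* was the only member that passed as lower in neurons. It read 0.397, 0.484 and 0.326 there, against 0.691 to 1.11 (median 1) in uninjured axons, without overlap (2.52-fold lower, log2 -1.33 ± 0.30, adjusted p = 0.00425). Genes for smell, taste and pheromone receptors, taken as largely silent in these cells, were lower in 32 of 40 cases and lay between log2 -1.61 and 0.20 in the same comparison, so the value of *Timm8a2* is within their range.

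Of the 8 genes of the inner membrane translocases 4 passed, all higher in neurons. *Grpel1*, the nucleotide exchange factor of the import motor, read 5.17, 2.43 and 6.01 in neurons and 0.567 to 1.24 (median 1) in uninjured axons (log2 2.08 ± 0.51, adjusted p = 0.00670). *Timm17a* was higher (1.87 ± 0.47), while its paralogue *Timm17b* was at 0.19 ± 0.28 and did not pass (adjusted p = 0.559). The difference between these paralogues was not tested. *Timm21*, which in yeast links TIM23 to the TOM complex, passed narrowly (1.55 ± 0.60, adjusted p = 0.0470). *Timm21* no longer passed with arrays shifted to the same median (adjusted p = 0.0573), or without neuron array 1 or 3 or uninjured array 1, 2, 3 or 6 (limma adjusted p = 0.0601 to 0.104). The channel gene *Timm22* did not pass (0.81 ± 0.33, adjusted p = 0.0583). *Timm29*, a subunit of the TIM22 complex, passed at 1.09 ± 0.18, but its probe sets went opposite ways, at log2 3.24 and -1.06, both past the threshold when fitted singly. *Timm50*, the presequence receptor of TIM23, was at 0.09 ± 0.22. *Timm44*, the anchor of the import motor, read 0.939, 1.18 and 0.783 in neurons, on both sides of the uninjured range of 0.936 to 1.07 (log2 -0.07 ± 0.22, adjusted p = 0.805).

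Of the 5 genes for the processing peptidase, cristae and prohibitins 3 passed, all higher in neurons. *Pmpcb*, the catalytic subunit of the peptidase that removes presequences, read 3.73, 2.72 and 4.28 in neurons and 0.953 to 1.22 (median 1.07) in uninjured axons (log2 1.81 ± 0.26, adjusted p = 0.000423). Its 2 probe sets read 3.48 and 0.15. *Pmpca*, the partner subunit, read 1.5, 1.16 and 1.42 in neurons and 0.972 to 1.15 (median 1) in uninjured axons, without overlap but also without passing (0.43 ± 0.20, adjusted p = 0.0803). *Immt*, a core gene of the cristae-organising complex MICOS, was at 0.85 ± 0.20 and passed, from arrays at 1.78, 1.63 and 2.02 in neurons and 0.859 to 1.14 (median 0.992) in uninjured axons. Of the 3 probe sets of *Immt*, at log2 1.84, 0.48 and 0.23, only the highest passed when fitted singly. *Chchd3*, its partner in MICOS, read 4.70, 2.52 and 5.11 in neurons and 0.306 to 2.63 (median 1) in uninjured axons. The spread of its uninjured arrays was the widest of the members (SD within sets 1.13 on the log2 scale), the groups overlapped and it did not pass (1.97 ± 0.91, adjusted p = 0.0844). *Phb2*, encoding a prohibitin of the inner membrane ring, read 1.62, 1.37 and 1.66 in neurons and 0.918 to 1.11 (median 1) in uninjured axons. It passed at log2 0.63 ± 0.19 (adjusted p = 0.0167), with probe sets at 2.11 and -0.86, and no longer passed with arrays shifted to the same median (log2 0.41, limma adjusted p = 0.0712).

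All 6 protease genes lay above uninjured axons in every neuron array, and 5 passed. *Yme1l1*, the inner membrane protease facing the intermembrane space, read 4.63, 4.77 and 5.52 in neurons and 0.774 to 1.33 (median 0.969) in uninjured axons (4.96-fold, log2 2.31 ± 0.27, adjusted p = 0.000112). Its 4 probe sets lay between 1.29 and 3.04. *Clpx* (1.36 ± 0.18), the unfoldase of the matrix protease ClpXP, passed, while its protease subunit *Clpp* (0.91 ± 0.38, adjusted p = 0.0630) did not. The matrix protease gene *Lonp1* (1.03 ± 0.17) and *Htra2* (0.95 ± 0.24), a serine protease of the intermembrane space, passed. The probe sets of *Lonp1* were at 1.81 and 0.24, and only the higher passed when fitted singly. *Afg3l2*, the inner membrane protease facing the matrix, read 1.52, 1.31 and 1.54 in neurons and 0.878 to 1.23 (median 1) in uninjured axons and passed narrowly (0.54 ± 0.21, adjusted p = 0.0485). *Afg3l2* no longer passed with arrays shifted to the same median (log2 0.32, adjusted p = 0.197), in the table with the highest probe set of each gene (adjusted p = 0.0628), or without neuron array 1 or 3 or uninjured array 1, 2, 3 or 6 (limma adjusted p = 0.0637 to 0.101). *Ptpmt1*, a phosphatase of cardiolipin synthesis, read 1.01, 0.596 and 1.12 in neurons, inside the uninjured range of 0.551 to 1.37 (-0.19 ± 0.47, adjusted p = 0.737).

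**Figure D2:**
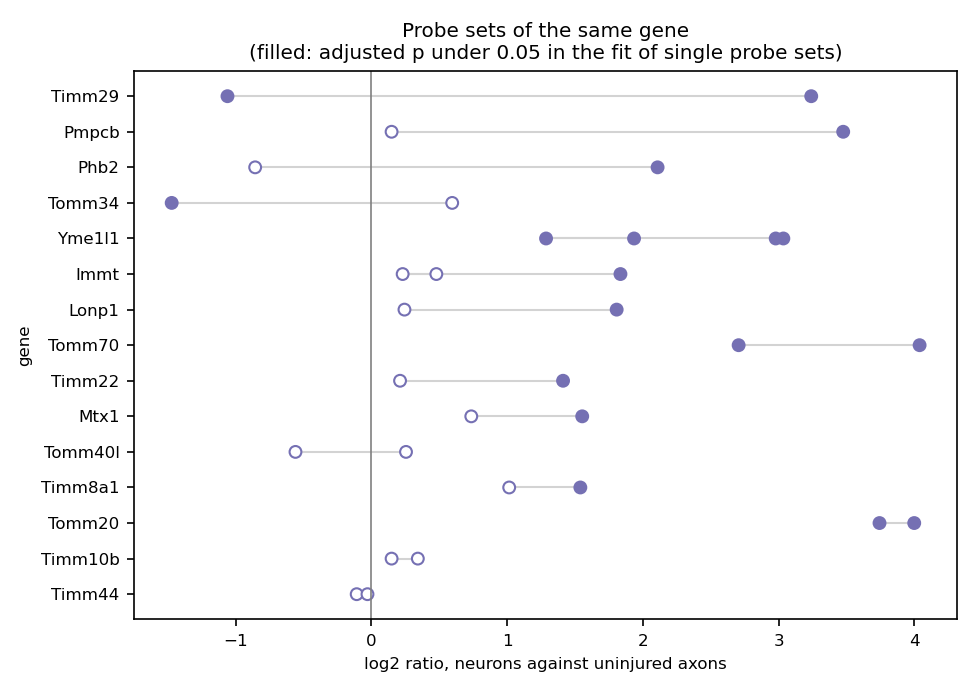
Log2 ratio of neurons against uninjured axons (x axis) for each probe set of the 15 members with more than 1 probe set (y axis), widest range at the top; filled points passed the threshold when every probe set was fitted singly. *Timm29*, *Phb2*, *Tomm34* and *Tomm40l* have probe sets on both sides of 0, and *Timm29* spans -1.06 to 3.24.

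Neuron array 2 was the lowest of the 3 neuron arrays in 35 of the 39 members, and in 50.4% of all genes. The array medians of the members were log2 1.22, 0.82 and 1.40 in neurons, and -0.08 to 0.01 in the measured uninjured arrays. The 18 hybridisation control probe sets, for transcripts added in fixed amounts, had mean ratios of 0.356, 1.06 and 0.197 in neuron arrays 1 to 3, against 0.931 to 1.12 in uninjured axons. Array 2, where these controls are near the reference, also had the lowest member values, and the part of labelling yield was not tested. Without that array 28 members were higher and 1 lower.

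Regenerating axons were set against uninjured axons to ask how these messages differ 2 days after axotomy. *Ptpmt1* and the small chaperone gene *Timm13* fell, 2 of 39 genes (5.13%), against 0.689% of all genes, and no member rose, against 0.0352% of all genes. At an unadjusted p under 0.05, 10 members (25.6%) were lower and 0 higher in limma, against 8.77% and 3.67% of all genes. In 13 members (33.3%) all 3 regenerating arrays lay below all 6 uninjured arrays, against 12.5% of all genes, and in 1 (2.56%) above them, against 10.3% of all genes. At any p, 31 members (79.5%) were below 0, against 46.9% of all genes, and 9 (23.1%) were at least 2-fold lower, against 5.27%. The median log2 ratio of the members was -0.19, and that of all genes 0.02. The 2 calls depended on single arrays: without regenerating array 2 or 3, or without uninjured array 2 or 6, neither *Ptpmt1* nor *Timm13* passed and the count was 0, while without regenerating array 1 it was 5. With 1 regenerating array left out, the log2 ratios stayed between -2.95 and -2.91 for *Ptpmt1* and between -3.44 and -3.01 for *Timm13*. Leaving out an uninjured array could not move these ratios, because the reference value is fixed, and changed only the p-value. With the error of the reference array left out 14 members were lower, and against the mean of the 6 uninjured arrays 10 were.

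**Figure D3:**
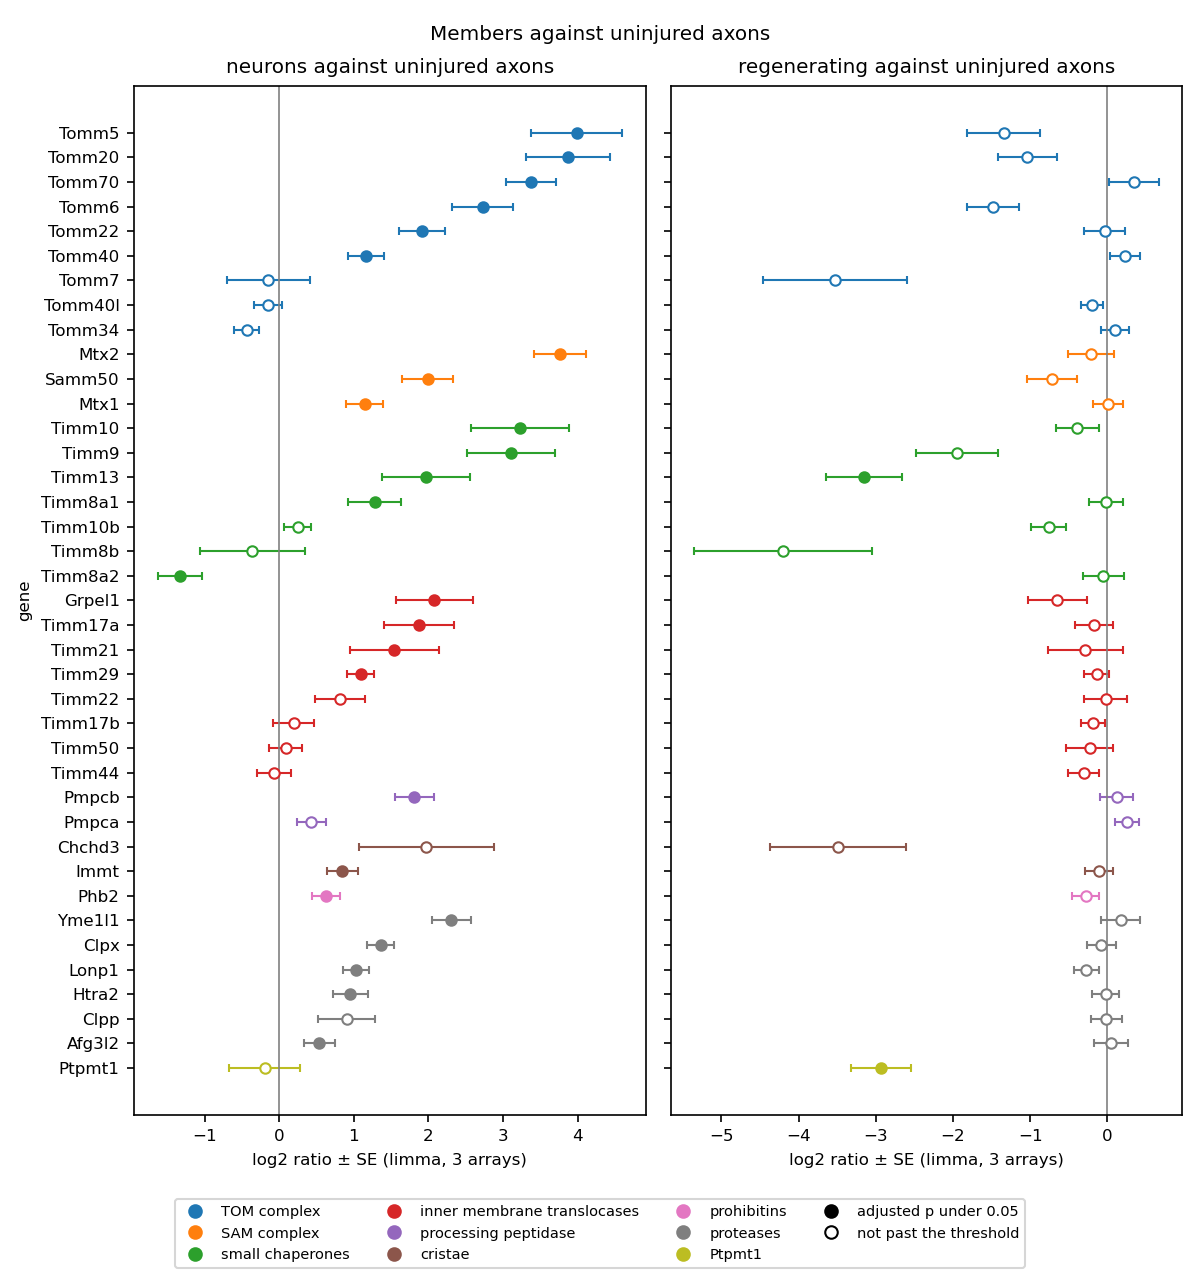
Log2 ratio ± SE of each member gene in neurons against uninjured axons (left) and in regenerating against uninjured axons (right), coloured by role. The ratio is the mean of 3 arrays, and the SE is that of the limma fit, with the error of 1 reference array. Filled points passed an adjusted p of 0.05. In the left panel 25 genes are filled to the right of 0 and 1 to the left, and in the right panel only *Timm13* and *Ptpmt1* are filled, both left of 0.

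*Ptpmt1* read 0.135, 0.128 and 0.130 in the 3 regenerating arrays, against 0.551 to 1.37 (median 1) in uninjured axons. The 3 regenerating values were nearly alike and far below the uninjured range (7.63-fold lower, log2 -2.93 ± 0.39, limma adjusted p = 0.0306). *Timm13* read 0.167, 0.0930 and 0.0914 in regenerating axons, against 0.650 to 1.76 (median 1) in uninjured axons, again without overlap (8.90-fold lower, log2 -3.15 ± 0.49, adjusted p = 0.0342). In neurons *Ptpmt1* lay within the uninjured range and *Timm13* above it.

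Larger mean differences came with a wider spread. *Timm8b*, another small chaperone, had the lowest mean of the members. It read 0.270, 0.0205 and 0.0289 in regenerating axons, against 0.477 to 1.38 (median 1) in uninjured axons, and array 1 stood apart from the others (log2 -4.20 ± 1.15, adjusted p = 0.129). *Tomm7* read 0.290, 0.0261 and 0.0857, against 0.859 to 1.11 (median 1) in uninjured axons, with array 1 again the highest (log2 -3.53 ± 0.93, adjusted p = 0.120). Without regenerating array 1, *Timm8b* was at -5.36 (limma adjusted p = 0.000843) and *Tomm7* at -4.40 (adjusted p = 0.00346), and both passed, as did *Tomm6*. *Chchd3* read 0.117, 0.0669 and 0.0908 in regenerating axons, against 0.306 to 2.63 (median 1) in uninjured axons. Its regenerating arrays were close to each other and the uninjured ones were not (log2 -3.49 ± 0.88, adjusted p = 0.112).

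**Figure D4:**
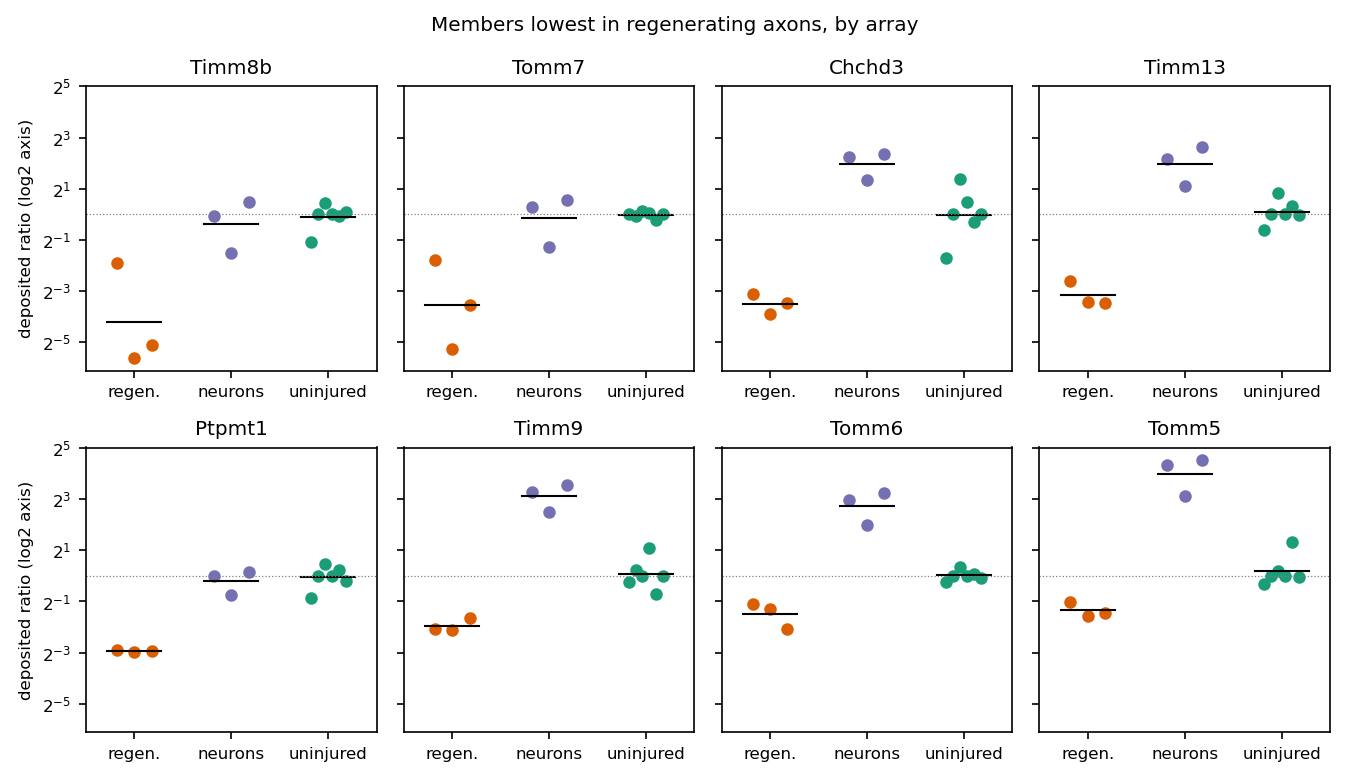
Deposited ratio (y axis, log2 scale) in each array of regenerating axons, neurons and uninjured axons (x axis) for the 8 members with the lowest log2 ratio in regenerating axons; bars are geometric means. In each panel all 3 regenerating points lie below all 6 uninjured points, and in *Timm8b* and *Tomm7* regenerating array 1 lies above the other 2.

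The 13 members without overlap were picked out after their values were seen. They were 5 of the 9 TOM genes, 4 of the 7 small chaperones, 1 of the 2 cristae genes, 1 of the 6 proteases, *Phb2* and *Ptpmt1*. For 8 of the 13 the gene has 1 probe set. The other 5 rest on the mean of 2 probe sets, and in none of them did both probe sets lie below the uninjured range: 1 did for *Timm10b* and *Tomm40l*, and 0 for *Tomm20*, *Lonp1* and *Phb2*. The small subunits *Tomm5*, *Tomm6* and *Tomm7* lay below the uninjured range in every regenerating array, with *Tomm6* at log2 -1.48 ± 0.34 (adjusted p = 0.0846) and *Tomm5* at -1.34 ± 0.47 (adjusted p = 0.248). The presequence receptor *Tomm20* was at -1.04 ± 0.38, with probe sets at -1.67 and -0.41, and *Tomm40l* at -0.19 ± 0.14. The carrier receptor *Tomm70* read 1.34, 1.36 and 1.12 in regenerating axons, against 0.846 to 1.59 in uninjured axons, and was the highest member (0.34 ± 0.32). Among the 7 small chaperones, *Timm9* read 0.238, 0.230 and 0.316, against 0.615 to 2.15 (median 1) in uninjured axons (log2 -1.95 ± 0.53, adjusted p = 0.128), and *Timm10b* was at -0.76 ± 0.23. *Timm10b* rests on probe sets at -1.43 and -0.10. *Timm10* (-0.39), *Timm8a2* (-0.05) and *Timm8a1* (-0.02) overlapped uninjured axons, and the median of the 7 was log2 -0.76.

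None of the 3 SAM genes and none of the 8 genes of the inner membrane translocases was free of overlap with uninjured axons. The 8 translocase genes lay between log2 -0.65 and -0.02. The 6 proteases lay between -0.27 and 0.17. Of these, *Lonp1* had gene means below the uninjured range, at 0.931, 0.776 and 0.782 against 0.957 to 1.09 (log2 -0.27 ± 0.16, adjusted p = 0.576). *Phb2* was at -0.28 ± 0.17, but its probe sets disagreed in sign, at -0.70 and 0.13. Probe sets disagreed in sign in 7 further members, whose gene means overlapped uninjured axons: they lay between -0.27 and 1.03 for the 4 probe sets of *Yme1l1*, at -0.65 and 0.03 for *Timm44*, -0.27 and 0.22 for *Timm22*, -0.18 and 0.20 for *Mtx1*, -0.01 and 0.20 for *Tomm34*, -0.06 and 0.03 for *Timm8a1*, and -0.0041 and 0.24 for *Pmpcb*. *Pmpca* was the only member above the uninjured range, at 1.19, 1.20 and 1.19 against 0.972 to 1.15 (log2 0.25 ± 0.15, adjusted p = 0.576).

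No cell type marker passed in regenerating against uninjured axons. Of 12 neuronal marker genes 5 lay below all uninjured arrays in every regenerating array and 0 above, against 12.5% and 10.3% of all genes, and array medians were log2 -1.16 to -0.55 in regenerating axons and -0.11 to 0.20 in uninjured axons. Of 8 oligodendrocyte lineage markers 4 lay below without overlap and 1 above, among them *Olig1* at log2 -2.80, and of 12 astrocyte markers 3 below. Of 9 microglia markers 4 lay above without overlap and 0 below. Of the 40 receptor genes taken as largely silent, 8 lay above and 2 below. The hybridisation controls read 1.16, 1.37 and 1.55 in the 3 regenerating arrays, against 0.931 to 1.12 in uninjured axons. GAPDH, measured by a control probe set at its 3′ end, read 0.355, 0.159 and 0.142 in the 3 regenerating arrays and 0.620 to 1.42 in uninjured axons. The ratio of its 3′ to its 5′ probe set was 0.716, 0.453 and 0.568 in regenerating axons and 0.900 to 1.39 in uninjured axons. For actin this ratio was 1.02, 0.648 and 0.758 in regenerating axons and 0.965 to 1.17 in uninjured axons. The part of RNA from these cell types, labelling yield and RNA quality in the lower member values was not tested.

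The direct comparison of regenerating axons with neurons does not use the uninjured arrays, but assumes that both groups were divided by the same reference. Of the 39 members 32 (82.1%) were lower in regenerating axons, against 44.2% of all genes, and 2 (5.13%) were higher, against 31.3% of all genes. The arrays did not overlap in equally many members, 32 lower and 2 higher, against 45.8% and 34.0% of all genes. Of the 57 probe sets 43 were lower and 4 higher, against 41.6% and 30.7% of all probe sets. The median difference was log2 -1.44 for the members and -0.23 for all genes. In the same comparison 11 of 12 neuronal markers (median log2 -3.31) and 11 of 12 astrocyte markers (median -3.41) were lower, and all 9 microglia markers were higher (median 1.22). The hybridisation controls read 1.16 to 1.55 in regenerating axons and 0.197 to 1.06 in neurons. The ratio of the 3′ to the 5′ probe set of GAPDH was 0.453 to 0.716 in regenerating axons and 0.214 to 0.30 in neurons. For actin the order was reversed, at 0.648 to 1.02 in regenerating axons and 1.34 to 1.72 in neurons. The part of these markers and controls in the lower member values was not tested. The lowest were *Chchd3* (log2 -5.46 ± 0.31, limma adjusted p = 4.06e-06), *Tomm5* (-5.33 ± 0.36, adjusted p = 9.30e-06) and *Timm13* (-5.13 ± 0.41, adjusted p = 2.08e-05), each with all regenerating arrays below all neuron arrays. *Timm8a2* was higher in regenerating axons, at 1.05, 0.833 and 1.02 against 0.397, 0.484 and 0.326 in neurons (log2 1.28 ± 0.19, adjusted p = 0.000476). Of the 40 receptor genes for smell, taste and pheromones, 36 were higher too, between log2 -0.19 and 2.19 (median 1.13). *Timm8a2* and the 9 microglia markers (0.93 to 1.81) are within that range. *Tomm34* was higher too, at 0.958, 1.01 and 1.26 against 0.816, 0.675 and 0.732 (log2 0.53 ± 0.16, adjusted p = 0.0170). When only the probe set of higher mean ratio was used, *Tomm34* turned to the other side (log2 -0.61, adjusted p = 0.0379). Picking by that mean over all arrays favours probe sets high in neurons. *Tomm40l* came next, at -0.04 ± 0.15. Besides *Tomm34* (-0.61 and 1.67) and *Tomm40l* (-0.44 and 0.35), probe sets disagreed in sign for *Timm29* (-3.46 and 0.99), *Phb2* (-2.80 and 0.99), *Timm22* (-1.68 and 0.0091) and *Timm44* (-0.54 and 0.057). Probe sets of the same sign differed by over 2 for *Pmpcb* (-3.23 and -0.15) and *Yme1l1* (-3.25 to -0.91).

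Both comparisons with uninjured axons share that reference, so their values are set side by side and not correlated. *Tomm70*, *Mtx2*, *Timm10* and *Yme1l1* had regenerating arrays that overlapped the uninjured ones and lay at log2 3.37, 3.77, 3.23 and 2.31 in neurons. *Tomm5*, *Tomm6*, *Tomm20* and *Timm9* lay below all uninjured arrays in regenerating axons and at 3.99, 2.73, 3.87 and 3.10 in neurons. *Tomm7*, *Timm8b* and *Ptpmt1* were among the 5 lowest members in regenerating axons (-3.53, -4.20 and -2.93) and did not pass in neurons (-0.15, -0.36 and -0.19).

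A separate list of 42 other genes, of which 40 were measured, held mostly genes for mitochondrial chaperones, peptidases, import and cristae. It also held *Ncln*, which encodes a protein of the endoplasmic reticulum, and *Bola3*, which acts in the assembly of iron-sulfur clusters. In neurons 23 of the 40 were higher than in uninjured axons and 2 lower, against 36.9% and 23.0% of all genes, with a median of log2 1.20. *Oxa1l*, the insertase of the inner membrane, was the highest (2.79), and the peptidase genes *Xpnpep3* (-1.36) and *Immp2l* (-1.20) were the 2 that passed as lower. In regenerating axons 2 of the 40 fell, against 0.689% of all genes. These were the chaperonin gene *Hspe1* (log2 -3.52, limma adjusted p = 0.0342) and *Dnajc15* (-1.94, adjusted p = 0.0359), which encodes a J protein of the import motor. In 12 of the 40 the regenerating arrays lay below all uninjured arrays, and in 2 above, against 12.5% and 10.3% of all genes. *Dnajc19*, another J protein of the motor, was at -3.53 (adjusted p = 0.0573), and *Romo1*, a small inner membrane protein, at -3.42 (adjusted p = 0.0758), and neither passed. The median of the 40 was log2 -0.08 in regenerating axons.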

How the data were processed

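The deposited table holds linear ratios for 31099 probe sets on 13 arrays, made by the authors from RMA signals per the submitters' processing notes, which give neither version nor settings. Uninjured arrays 1 to 3 have a median ratio of 1 in 100% of probe sets, as do arrays 4 to 6, and array 7 is 1 throughout. What divided the regenerating and neuron arrays is not given in the sources used here. No ratio of a member lay at the table's lowest value, 0.01. Array number limits the precision.

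Genes were named from the platform annotation (20826 probe sets with 1 symbol, 436 with several, 9780 with none, 57 controls), and all 39 members matched GRCr8 by gene identifier. Log2 ratios were averaged over the probe sets of a gene. Members, lists and tests were chosen with earlier results of these data known.

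Groups were tested by lmFit and eBayes of limma 3.58.1 in R 4.3.3 over 14217 genes. Against uninjured axons, the reference was array 7 with the error of 1 array, and the spread came from the 3 arrays and from uninjured arrays around their own set's mean. Regenerating axons and neurons were compared in a fit of 2 groups. P-values were adjusted by Benjamini and Hochberg at 0.05.

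Members named array by array were the highest and lowest of each role in neurons, and in regenerating axons those past the threshold, the 4 lowest and the 2 highest. Against neurons, the 3 highest, the 3 lowest and those against the majority were named. Probe sets are given where they disagree in sign or by over 2 on the log2 scale. Other values in the text were chosen after they were seen. Alternatives were the error and choice of the reference, array centring, the rule for probe sets and a floor of 0.1. Further ones were robust eBayes, the replicate number as a block and each array left out. Deviations of arrays of equal number from their group mean correlated at -0.39 to 0.19. With 3 arrays per group this cannot tell whether they were paired.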

Additional observations from a re-analysis of the deposited data

Results flagged for a closer look

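In 5 of the 39 members, 1 of the 6 measured uninjured arrays stood apart from the other 5, by a gap past the 95% critical value of Dixon's test. That is 12.8% of the members, against 17.2% of all 14217 genes by the same measure. The 5% rate of that test for independent values does not apply, since each set of 3 uninjured arrays is divided by its own median. *Tomm5* had a ratio of 2.51 in uninjured array 5, above the other arrays, and *Htra2* had 1.14 in array 3. The lone value was low for *Timm17a* (0.664 in array 5), *Tomm40* (0.817 in array 5) and *Timm8b* (0.477 in array 1). The low array of *Timm8b* still lay above all 3 regenerating arrays.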

How the results depend on the processing

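Relative to 25 members higher and 1 lower in neurons than in uninjured axons, 2 were lower with the reference error left out, against the mean of 6 uninjured arrays, after shifting arrays to the same median and with the replicate block, and 3 of 57 probe sets were. Leaving out 1 array gave 23 to 28 higher and 1 to 2 lower. The median was 1.55 with the probe set of highest mean. That probe set was picked by its mean log2 ratio over all arrays, a choice that itself favours probe sets high in neurons. In the same comparison *Timm17b* (-0.026) and *Timm50* (-0.13) changed sign after the shift, *Tomm34* (0.60) and *Tomm40l* (0.26) with the highest probe set. Without 1 array *Ptpmt1* ranged from -0.37 to 0.085, *Timm8b* from -0.79 to 0.22, *Tomm7* from -0.50 to 0.42, *Timm44* from -0.22 to 0.075 and *Timm50* from -0.026 to 0.21. None of these 8 had passed. In regenerating against uninjured axons, 14 members were lower and 1 higher with the reference error left out, 10 lower against the mean of 6 arrays, 4 lower with the replicate block and 0 to 5 lower without 1 array. In regenerating axons against neurons, the median was -1.23 after the shift, -2.02 with the highest probe set, -1.68 over probe sets and -1.57 to -1.34 without 1 array. The 2 members higher there became 1 with the highest probe set, 4 over probe sets and 1 to 2 without 1 array, *Tomm40l* was at 0.17 after the shift and -0.14 to 0.059 without 1 array, and *Tomm34* at -0.61 with the highest probe set. The causes were not tested. Of 624 gene values under alternatives in neurons against uninjured axons, 573 kept their direction and side of the threshold over all 39 members. The other comparisons were followed for selected members only, where 204 of 240 did for 15 members in regenerating against uninjured axons, and 61 of 66 for 6 members in regenerating axons against neurons. Some alternatives could not change a direction. Against uninjured axons the log2 value stays fixed when the reference error or an uninjured array is left out, or under robust eBayes. There only the p-value can move, so these totals are partly set in advance. Same-numbered arrays are not known to be paired. Ratios show no signal over background, so members near it cannot be told from those well above it.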
